A study of Mus musculus with 10 samples.

Results

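The DYRK and HIPK genes encode a family of protein kinases. The 8 genes described here are Dyrk1a, Dyrk1b, Dyrk2, Dyrk3, Dyrk4, Hipk1, Hipk2 and Hipk3. They were taken by gene symbol from the 22923 symbols measured by RNA sequencing. Dyrk1a was the gene targeted in the study, and its relatives were followed for differences between the genotypes. RNA was taken from 5 sorted cell populations of C57bl/6 mice at 4 weeks of age. Quiescent and cycling CD4+CD8+ thymocytes came from the thymus, and mature granulocytes, small pre-B cells and large pre-B cells came from the bone marrow. Each population was represented by 1 library from mice labelled CKO, with the genotype Dyrk1a -/- and Mx1-Cre+, and by 1 library from Control mice, with the genotype Dyrk1a flox/flox and Mx1-Cre-. Each library was made from a pool of 2 mice, which gave 10 libraries with no replicate of any group. Mx1-Cre is a transgene in which an interferon-responsive promoter drives the Cre recombinase, and the Control mice carried the floxed gene without it. The labels do not name the exons removed, how Cre was induced or the gates of the sort.

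DYRK kinases phosphorylate their own activation loop on tyrosine as they are made and then act on serine and threonine of other proteins. HIPK kinases are their close relatives, and work mainly in the nucleus on transcription factors and co-repressors. DYRK1A and DYRK1B form the nuclear branch of the DYRK kinases and are known to hold cells out of the cell cycle, by marking D-type cyclins for destruction and by helping assemble DREAM, a complex that represses cell-cycle genes. DYRK2, DYRK3 and DYRK4 form the other branch. Pre-B cells and CD4+CD8+ thymocytes divide and then become quiescent as they rearrange their antigen receptor genes, which makes both lineages a place to look at such kinases.

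Values are given as FPKM, in which fragment counts are divided by transcript length and by library size, a scale that allows levels of different genes to be compared. Totals were 360394 to 431868 FPKM in the 8 lymphoid libraries, and 1074258 FPKM in CKO-labelled and 830006 FPKM in Control granulocytes, with 9818 to 10350 genes at 1 FPKM or more in each library. The number of reads is not known, so that no counting error can be given. All 7 pre-B cell markers reached 1 FPKM in the pre-B cell libraries, all 7 CD4+CD8+ thymocyte markers did so in the thymocyte libraries, and all 7 granulocyte markers with a row did so in the granulocyte libraries. Some markers were also found outside their population. Of the granulocyte markers 6 or 7 reached 1 FPKM in each pre-B cell library, with a sum of 290.0 FPKM in CKO-labelled and 642 FPKM in Control large pre-B cells, beside 51231 FPKM in CKO-labelled and 62796 FPKM in Control granulocytes. Most of the large pre-B cell sum was Mpo and Elane. Mpo had 159 FPKM in CKO-labelled and 365 FPKM in Control large pre-B cells, beside 209 FPKM and 489 FPKM in granulocytes. Elane had 115 FPKM and 251 FPKM there, beside 207 FPKM and 458 FPKM. Camp, by contrast, had 5.5 FPKM and 9.97 FPKM in large pre-B cells, beside 18472 FPKM and 22665 FPKM in granulocytes. Of the pre-B cell markers 7 reached 1 FPKM in CKO-labelled and 5 in Control granulocytes, with a sum of 22.4 FPKM in the CKO-labelled library. The part of these transcripts in the members' values was not tested. All populations of a genotype came from 1 pool of mice, so the p-values below do not measure the spread between animals. No group had a replicate library, so they do not measure the spread between replicate libraries either. The residual spread of a fit is how unevenly the genotypes differed over the populations. In bulk samples, fewer cells of a type and less RNA per cell cannot be told apart.

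The promoters of Dyrk3 and Dyrk1b are shown because these were the members with the largest ratio between genotypes and with the largest difference between small and large pre-B cells. Each is the stretch of 250 bases before the transcription start in RefSeq (GRCm38.p6, the build also called mm10), 5′ to 3′ on the strand of the gene, with a match to the letters CCAAT in capitals, which reads ATTGG on the opposite strand. The stretch of Dyrk3 is chr1:131138235-131138484 on the minus strand, and that of Dyrk1b is chr7:28179233-28179482 on the plus strand.
Dyrk3: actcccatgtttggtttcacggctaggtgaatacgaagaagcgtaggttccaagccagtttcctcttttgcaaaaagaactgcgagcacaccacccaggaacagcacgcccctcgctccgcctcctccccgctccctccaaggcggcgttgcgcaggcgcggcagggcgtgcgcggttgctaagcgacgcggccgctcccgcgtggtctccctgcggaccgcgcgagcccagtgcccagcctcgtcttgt
Dyrk1b: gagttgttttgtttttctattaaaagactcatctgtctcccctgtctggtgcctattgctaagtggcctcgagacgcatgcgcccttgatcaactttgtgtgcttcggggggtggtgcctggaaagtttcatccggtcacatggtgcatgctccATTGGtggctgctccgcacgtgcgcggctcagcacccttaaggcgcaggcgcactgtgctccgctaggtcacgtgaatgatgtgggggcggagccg

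Of the Dyrk3 bases shown 64.8% were G or C, and of the Dyrk1b bases 56.8%. Both promoters, and a second RefSeq promoter of Dyrk1b (chr7:28180066-28180365, plus strand), were searched, on both strands and from 250 bases before to 50 bases after the start, for 3 kinds of letters common in cell-cycle promoters. These were E2F letters (TTTCCCGC, TTTGGCGC, TTTCGCGC or TTTGCCGC), CHR letters (TTTGAA) and CCAAT. Over 32851 RefSeq promoters the shares with a match were 2.26% for E2F, 17.9% for CHR and 37.4% for CCAAT. Dyrk3 held none of these letters in the window. Dyrk1b held 1 match, to CCAAT on the opposite strand, starting at position -96 from the transcription start. Its second promoter held none of these letters. All 8 genes had an entry in the RefSeq promoter table.

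Of the 8 members 7 were clearly transcribed in at least some of these cells, and Dyrk4 was not. The summed level of the 5 DYRK genes was 137 FPKM in CKO-labelled and 114 FPKM in Control quiescent thymocytes, and 94.7 FPKM in CKO-labelled and 72.2 FPKM in Control cycling thymocytes. In granulocytes it was 64.2 FPKM in the CKO-labelled and 46.0 FPKM in the Control library. For small pre-B cells it was 97.8 FPKM in the CKO-labelled and 92.9 FPKM in the Control library, and large pre-B cells 73.2 FPKM in the CKO-labelled and 70.8 FPKM in the Control library. The DYRK sum was thus higher in the CKO-labelled library of each of the 5 populations, and higher in quiescent than in cycling cells of each lineage and genotype. Dyrk1a itself gave 65.3% of the DYRK sum in CKO-labelled and 69.7% in Control granulocytes, but 32.6% in CKO-labelled and 32.7% in Control quiescent thymocytes, where Dyrk1b was the most abundant member. In lymphoid libraries the HIPK sum ranged over 63.1 to 75.0 FPKM, and it was 381 FPKM in CKO-labelled and 370.0 FPKM in Control granulocytes. Hipk1 made up 62.6% to 85.3% of it.

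**Figure D1:**
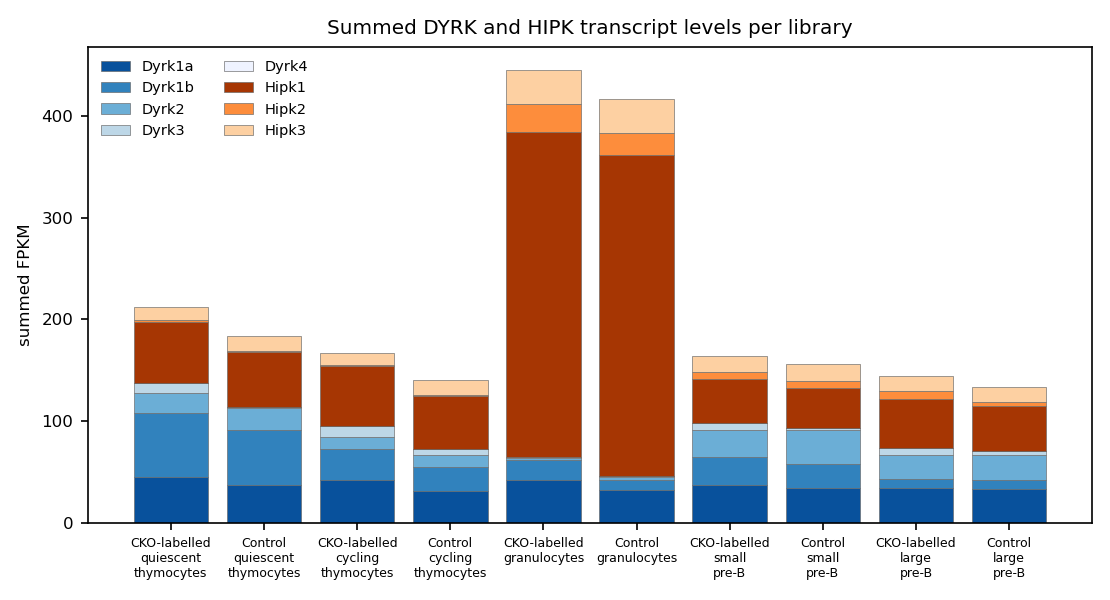
Summed FPKM of the 8 genes in each library, stacked by gene, with DYRK genes in blue and HIPK genes in orange and each bar 1 library. The granulocyte bars are the tallest because of Hipk1, at 320.0 FPKM in the CKO-labelled and 316 FPKM in the Control library, and Dyrk1b takes the largest share of the DYRK part in quiescent thymocytes.

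Dyrk1a, the targeted gene (chromosome 16, 94570010 to 94695517, plus strand, mm10), was not lower in the CKO-labelled libraries. Its level was 44.7 FPKM in CKO-labelled and 37.4 FPKM in Control quiescent thymocytes, and 42.3 FPKM in CKO-labelled and 31.2 FPKM in Control cycling thymocytes. Granulocytes had 41.9 FPKM in the CKO-labelled and 32.1 FPKM in the Control library. For small pre-B cells the level was 36.9 FPKM in the CKO-labelled and 34.1 FPKM in the Control library, and large pre-B cells 34.4 FPKM in the CKO-labelled and 33.2 FPKM in the Control library. The CKO-labelled library was the higher in 5 of 5 populations, by 3.65% in large pre-B cells and by 35.5% in cycling thymocytes, the smallest and the largest differences. A value over the whole gene does not check the removal of exons that the labels do not name, so the labels are used here as given and the libraries are called CKO-labelled. Of all members Dyrk1a had the narrowest range, with its highest library 1.43-fold above its lowest. The ranges of the populations overlapped, except that both quiescent thymocyte libraries lay above both small and both large pre-B cell libraries. Statements on overlap or on a shared direction, here and below, are descriptions only. The share of all genes that do the same is not given here.

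Across the 5 populations the CKO-labelled minus Control difference of Dyrk1a was 0.24 ± 0.07 (SE) on the log2(FPKM + 1) scale, which did not pass the threshold of 0.05 (limma with population as a block, 4 residual degrees of freedom, Benjamini-Hochberg adjusted p = 0.234, unadjusted p = 0.0147). All fold changes on a log2 scale below are on this scale, which understates changes of low genes. The difference of Dyrk1a between quiescent and cycling thymocytes was 0.17 ± 0.12 (adjusted p = 0.32, limma), and that between small and large pre-B cells was 0.07 ± 0.12 (adjusted p = 0.677, limma). Its level was thus not shown to differ with quiescence in either lineage.

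**Figure D2:**
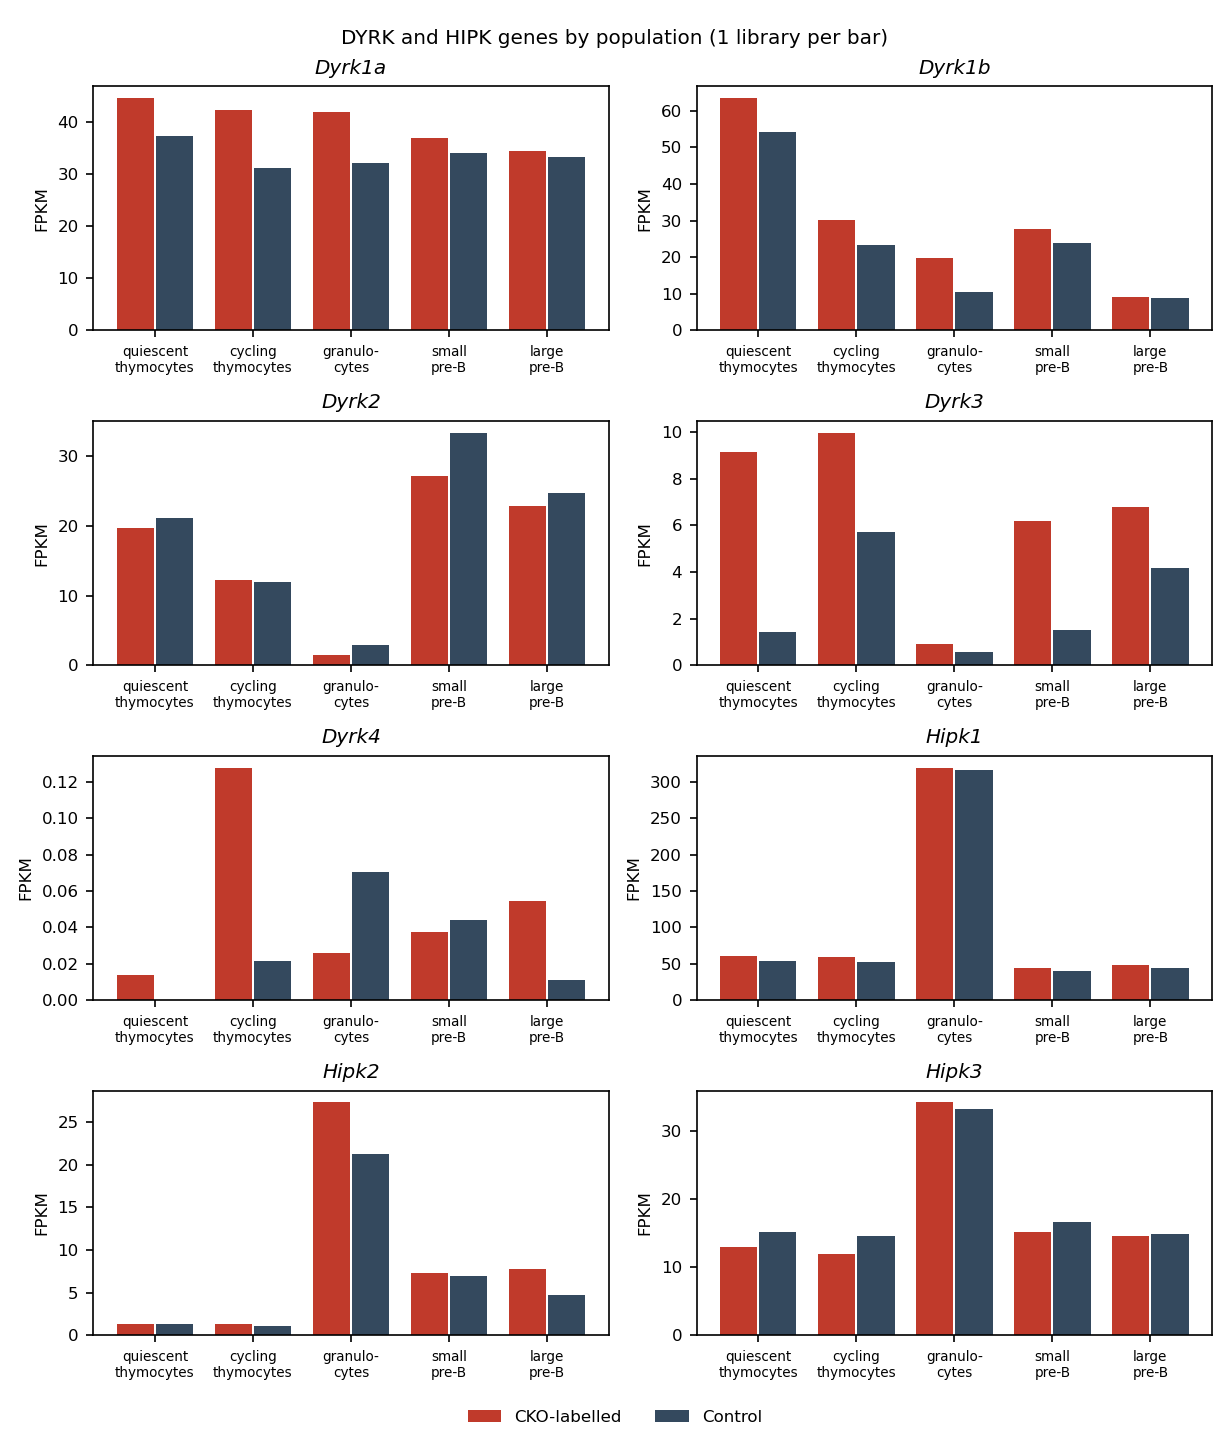
FPKM of each gene (vertical axes, linear, from 0, with a scale of its own per gene) in the 5 populations, with CKO-labelled libraries in red and Control libraries in dark blue, 1 library per bar and no error bar. Dyrk1a bars lie between 31.2 and 44.7 FPKM, whereas Dyrk3 bars differ most between genotypes in quiescent thymocytes and small pre-B cells, and the Hipk bars are tallest in granulocytes.

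Dyrk1b, the nearest relative of Dyrk1a and a kinase known to keep cells quiescent (chromosome 7, 28179469 to 28187294, plus strand), was more abundant in quiescent than in cycling cells of both lineages. In thymocytes of the CKO-labelled pool it had 63.6 FPKM in quiescent and 30.1 FPKM in cycling cells, and in those of the Control pool 54.2 FPKM in quiescent and 23.4 FPKM in cycling cells. In the CKO-labelled pool it had 27.6 FPKM in small and 9.04 FPKM in large pre-B cells, and in the Control pool 23.8 FPKM in small and 8.73 FPKM in large pre-B cells. The quiescent and cycling libraries did not overlap in either lineage. The ratio was 2.12-fold in CKO-labelled and 2.32-fold in Control thymocytes, and 3.05-fold in CKO-labelled and 2.72-fold in Control pre-B cells.

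Dyrk1b rose by a log2 difference of 1.12 ± 0.19 in quiescent against cycling thymocytes (adjusted p = 0.00615, limma) and by 1.43 ± 0.19 in small against large pre-B cells (adjusted p = 0.00373, limma), in both genotypes each time. The first call was lost without the Control cycling thymocytes (1.11, adjusted p = 0.0614, limma). The difference between these effects, thymocyte minus pre-B, was -0.31 ± 0.27 and did not pass (adjusted p = 0.524, limma). Among 11715 genes tested, 38.4% were called in either direction between quiescent and cycling thymocytes, and 41.2% between small and large pre-B cells, so a call of this kind was common. These counts depended on single libraries. With 1 library left out, 651 to 4703 genes were called in the thymocyte comparison, against 4496 with all, and 1509 to 4907 in the pre-B cell comparison, against 4825 with all. In thymocytes 2927 genes were called without the CKO-labelled cycling, 651 without the Control cycling and 2207 without the Control quiescent library. In pre-B cells 1702 were called without the CKO-labelled large, 1509 without the Control large and 1661 without the Control small library.

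Between genotypes Dyrk1b was higher in the CKO-labelled library of all 5 populations, with the largest gap in granulocytes, at 19.8 FPKM in the CKO-labelled and 10.4 FPKM in the Control library (1.9-fold). The other ratios lay between 1.04-fold, in large pre-B cells, and 1.29-fold, in cycling thymocytes. Over 5 populations the difference was 0.34 ± 0.12 (adjusted p = 0.261, limma), and over the 4 lymphoid populations it was 0.21 ± 0.08 (adjusted p = 0.279, limma), so neither passed. Against pre-B cells, granulocytes differed in Dyrk1b by -0.07 ± 0.16 (adjusted p = 0.707, limma), and the direction depended on single libraries. Without the Control large pre-B cells the difference was 0.02. The difference was 0.26 (adjusted p = 0.12, limma) without the Control granulocytes and -0.4 (adjusted p = 0.0337, limma) without the CKO-labelled granulocytes. Thymocytes had more Dyrk1b than pre-B cells, by 1.32 ± 0.13 (adjusted p = 0.000147, limma).

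Dyrk2 (chromosome 10, 118855603 to 118870209, minus strand) encodes a kinase known to phosphorylate p53 and to serve as the scaffold of a ubiquitin ligase complex. Its level separated the populations without overlap between any of them. Granulocytes were the lowest, at 1.52 FPKM in the CKO-labelled and 2.89 FPKM in the Control library. Quiescent thymocytes had 19.7 FPKM in the CKO-labelled and 21.2 FPKM in the Control library, and cycling thymocytes 12.3 FPKM in the CKO-labelled and 11.9 FPKM in the Control library. The highest were small pre-B cells, with 27.1 FPKM in the CKO-labelled and 33.4 FPKM in the Control library, before large pre-B cells with 22.9 FPKM in the CKO-labelled and 24.7 FPKM in the Control library. Granulocytes had 16.4-fold less Dyrk2 than the mean of the pre-B cell libraries in the CKO-labelled pool and 10.1-fold less in the Control pool.

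In granulocytes Dyrk2 fell by 3.15 on the log2 scale against pre-B cells (SE 0.14, adjusted p = 1.7e-06, limma), and in thymocytes it fell by 0.73 against pre-B cells (SE 0.12, adjusted p = 0.00135, limma). It rose by 0.71 ± 0.17 in quiescent against cycling thymocytes (adjusted p = 0.016, limma). This call did not hold without the Control cycling (0.55, adjusted p = 0.138, limma), the Control quiescent (0.79, adjusted p = 0.0577, limma) or the CKO-labelled quiescent library (0.64, adjusted p = 0.0765, limma). Between small and large pre-B cells its difference of 0.33 ± 0.17 did not pass (adjusted p = 0.159, limma), nor did the difference of these effects between lineages, at 0.39 ± 0.24 (adjusted p = 0.371, limma). Between genotypes Dyrk2 was lower in the CKO-labelled library of 4 populations and higher in 1, cycling thymocytes, and its difference over 5 populations was -0.22 ± 0.11 (adjusted p = 0.34, limma). A stretch of 328 bases, 5.25% of the exon bases of Dyrk2, also belongs to 4932442E05Rik on the opposite strand, and reads there cannot be told apart where strand was not recorded.

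Dyrk3 (chromosome 1, 131127455 to 131138340, minus strand) encodes a kinase known to dissolve stress granules and, in dividing cells, other membraneless bodies, and was first known from erythroid progenitors. It was the member that differed most between genotypes. Quiescent thymocytes had 9.12 FPKM in the CKO-labelled and 1.42 FPKM in the Control library, and cycling thymocytes had 9.97 FPKM in the CKO-labelled and 5.71 FPKM in the Control library. In granulocytes both values were under 1 FPKM, at 0.91 FPKM in the CKO-labelled and 0.558 FPKM in the Control library. Of the pre-B cells, small ones had 6.2 FPKM in the CKO-labelled and 1.51 FPKM in the Control library, and large ones 6.8 FPKM in the CKO-labelled and 4.18 FPKM in the Control library. All 4 CKO-labelled lymphoid libraries lay above all 4 Control lymphoid libraries. How many of all genes were ordered in this way is not given here.

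The ratio of CKO-labelled to Control was 6.42-fold in quiescent thymocytes and 4.1-fold in small pre-B cells, against 1.75-fold in cycling thymocytes and 1.63-fold in large pre-B cells. Within a population there was 1 library per genotype and no test. By a size rule, which asked for a log2 ratio of at least 1 with the higher library at 5 FPKM or more, Dyrk3 was higher in CKO-labelled quiescent thymocytes (log2 ratio 2.06) and in CKO-labelled small pre-B cells (1.52), and was the only member past it in any population. The same rule was met in either direction by 5.26% of genes in quiescent thymocytes and by 6.3% in small pre-B cells, and in the direction of Dyrk3 by 3.66% and 4.52% of genes. The shares were 0.954% in cycling thymocytes, 1.84% in large pre-B cells and 2.33% in granulocytes, where no member met it. With a pseudocount of 5 in place of 1 the log2 ratio in small pre-B cells was 0.78, below the rule.

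Over the 5 populations Dyrk3 differed by 1.04 ± 0.26 between CKO-labelled and Control (unadjusted p = 0.00565, adjusted p = 0.201, limma), and over the 4 lymphoid populations by 1.22 ± 0.26 (unadjusted p = 0.00366, adjusted p = 0.223, limma). The direction was the same in 5 of 5 populations, and neither value passed after adjustment over all genes. Leaving out the pair of libraries of each population in turn kept the difference between 0.78 and 1.22 over 5 populations, and between 0.94 and 1.43 over the lymphoid populations.

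Within the Control pool Dyrk3 was lower in quiescent than in cycling cells, and within the CKO-labelled pool it was nearly level. Control quiescent thymocytes had 4.02-fold less Dyrk3 than Control cycling thymocytes, and Control small pre-B cells had 2.76-fold less than Control large pre-B cells. The ratio of quiescent to cycling was 0.915 in CKO-labelled thymocytes, and the ratio of small to large was 0.912 in CKO-labelled pre-B cells. The mean CKO-labelled minus Control difference was 1.79 in quiescent thymocytes and small pre-B cells together, and 0.65 in cycling thymocytes and large pre-B cells together. A test of that gap, added after these values were seen and with 2 residual degrees of freedom, gave 1.14 ± 0.25 (unadjusted p = 0.00716) and did not pass (adjusted p = 0.517, limma). In that test 0.018% of 11126 genes were called in either direction and no member was, with 1 of 7 members and 745 genes at an unadjusted p under 0.05.

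Transcripts of dividing cells, like Dyrk3, had their largest CKO-labelled to Control ratios in quiescent thymocytes and small pre-B cells. The summed level of 6 such genes (Mki67, Top2a, Ccnb1, Birc5, Mcm5 and Rrm2) was 320.0 FPKM in CKO-labelled and 24.3 FPKM in Control quiescent thymocytes, 13.2-fold higher, and 605 FPKM in CKO-labelled and 268 FPKM in Control small pre-B cells, 2.26-fold higher. All 6 reached 1 FPKM in every library but Control quiescent thymocytes, where 5 did, and none was listed at 0. In cycling thymocytes the sum was 1330 FPKM in the CKO-labelled and 1221 FPKM in the Control library, 1.09-fold higher, and in large pre-B cells 1473 FPKM in the CKO-labelled and 1344 FPKM in the Control library, 1.1-fold higher. In these cycling populations Dyrk3 was 1.75-fold and 1.63-fold higher with the sum of dividing-cell genes nearly level. Within the CKO-labelled pool Dyrk3 had 9.12 FPKM in quiescent and 9.97 FPKM in cycling thymocytes, beside sums of 320.0 FPKM and 1330 FPKM. It had 6.2 FPKM in small and 6.8 FPKM in large pre-B cells of that pool, beside sums of 605 FPKM and 1473 FPKM. In the Control pool both Dyrk3 and the sum were lower in the quiescent population of each lineage. Granulocytes had a sum of 480.0 FPKM in the CKO-labelled and 460.0 FPKM in the Control library, above both quiescent thymocyte libraries, and less Dyrk3 than any lymphoid library.

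**Figure D3:**
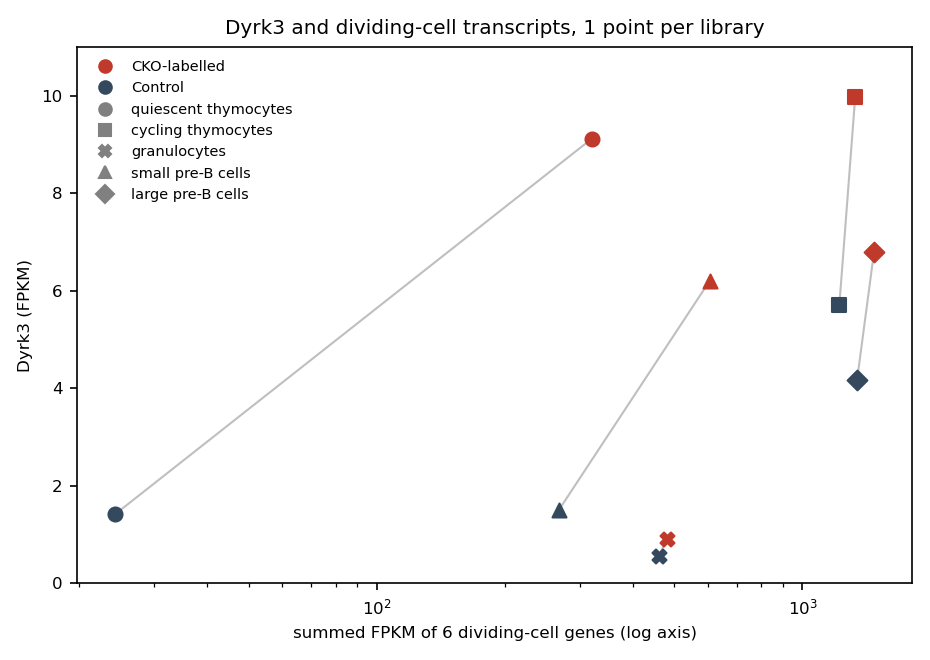
Dyrk3 in FPKM (vertical axis, linear) against the summed FPKM of 6 dividing-cell genes (horizontal axis, log) in the 10 libraries, with colour for genotype, marker shape for population and a grey line joining the libraries of a population. The lines of quiescent thymocytes and small pre-B cells run up and to the right towards the CKO-labelled library, those of the cycling populations run nearly straight up, and both granulocyte points lie below 1 FPKM.

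Erythroid transcripts, from the lineage in which Dyrk3 was first described, were measured beside it. The sum of 8 erythroid genes was 13.4 FPKM in CKO-labelled and 0.931 FPKM in Control quiescent thymocytes, 14.4-fold higher, with 2 of 8 genes at 1 FPKM or more in the CKO-labelled library and 0 of 8 in the Control library. In cycling thymocytes the erythroid sum was 1.84 FPKM in the CKO-labelled and 4.1 FPKM in the Control library. It was 23.0 FPKM in CKO-labelled and 27.8 FPKM in Control small pre-B cells. The highest erythroid sums were 314 FPKM in CKO-labelled and 83.0 FPKM in Control granulocytes, and for large pre-B cells 214 FPKM in the CKO-labelled and 392 FPKM in the Control library. The part of erythroid transcripts in the Dyrk3 values was not tested.

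Transcripts of other cell types also differed in small pre-B cells. The sum of 6 natural killer and innate genes was 93.7 FPKM in the CKO-labelled and 11.1 FPKM in the Control library, and all 6 reached 1 FPKM in the CKO-labelled library against 4 in the Control library. The sum of 5 plasmacytoid dendritic cell genes was 405 FPKM in CKO-labelled and 117 FPKM in Control small pre-B cells. The largest part was Irf8, with 212 FPKM in the CKO-labelled and 92.5 FPKM in the Control library. Irf8 also had 82.5 FPKM in CKO-labelled and 81.0 FPKM in Control large pre-B cells. Siglech had 41.5 FPKM in CKO-labelled and 2.25 FPKM in Control small pre-B cells, and all 5 genes were higher in that CKO-labelled library. The sum of 6 interferon response genes was 78.9 FPKM in CKO-labelled and 48.0 FPKM in Control small pre-B cells. The part of these transcripts in the Dyrk3 value of small pre-B cells was not tested. In quiescent thymocytes the natural killer and innate sum was 54.8 FPKM in the CKO-labelled and 20.8 FPKM in the Control library, 2.63-fold higher. Only Gzma, a granzyme, reached 1 FPKM there, with 54.5 FPKM in the CKO-labelled and 20.2 FPKM in the Control library, and Ncr1 and Gzmb were listed at 0 in both. The part of these transcripts in the Dyrk3 value of quiescent thymocytes was not tested. The plasmacytoid dendritic sum there was 292 FPKM in the CKO-labelled and 391 FPKM in the Control library. Most of it was Ccr9, with 265 FPKM in the CKO-labelled and 365 FPKM in the Control library. Bst2 had 21.1 FPKM in the CKO-labelled and 19.3 FPKM in the Control library, and Irf8 had 6.49 FPKM and 5.85 FPKM. Siglech was listed at 0 in both, and Cd300c was at or near 0.

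Dyrk3 was lower in granulocytes than in pre-B cells by 1.59 on the log2 scale (-1.59 ± 0.36, adjusted p = 0.0049, limma), a call that was lost without the CKO-labelled granulocytes (-1.13, adjusted p = 0.0604, limma). Averaged over genotypes, its differences between quiescent and cycling thymocytes (-0.79 ± 0.41, adjusted p = 0.176, limma) and between small and large pre-B cells (-0.58 ± 0.41, adjusted p = 0.296, limma) did not pass. Without the CKO-labelled quiescent thymocytes, the library whose Dyrk3 stood at the level of cycling cells, the thymocyte difference was -1.44 (adjusted p = 0.0339, limma). Thymocytes and pre-B cells differed by 0.33 ± 0.29 (adjusted p = 0.349, limma).

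Dyrk4 (chromosome 6, 126876020 to 126921839, minus strand), a kinase known mainly from the testis, was at or near 0 in every library. The highest value was 0.128 FPKM, in CKO-labelled cycling thymocytes, and Control quiescent thymocytes were listed at 0. No library reached 1 FPKM, so Dyrk4 was the 1 member of 8 that did not pass the filter of 1 FPKM in at least 2 libraries and was not tested.

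Hipk1 (chromosome 3, 103739815 to 103791563, minus strand), a nuclear kinase of transcriptional regulators, was the most abundant member in 8 of the 10 libraries. It had 320.0 FPKM in CKO-labelled and 316 FPKM in Control granulocytes. Thymocytes had 60.7 FPKM in CKO-labelled and 53.3 FPKM in Control quiescent cells, and 59.4 FPKM in CKO-labelled and 52.5 FPKM in Control cycling cells. Pre-B cells had 43.6 FPKM in the CKO-labelled and 39.7 FPKM in the Control small cells, and 48.5 FPKM in the CKO-labelled and 43.6 FPKM in the Control large cells. Both granulocyte libraries stood far above all lymphoid libraries, and all 4 thymocyte libraries stood above all 4 pre-B cell libraries. Granulocytes had 6.95-fold more Hipk1 than the mean of the pre-B cells in the CKO-labelled pool and 7.6-fold more in the Control pool, a rise of 2.83 ± 0.07 on the log2 scale (adjusted p = 1.6e-07, limma). Thymocytes exceeded pre-B cells by 0.36 ± 0.06 (adjusted p = 0.00143, limma).

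Between genotypes Hipk1 was 1.01-fold to 1.14-fold higher in the CKO-labelled library of all 5 populations, a difference of 0.13 ± 0.05 that did not pass (adjusted p = 0.286, limma). It was not shown to differ between quiescent and cycling thymocytes (0.03 ± 0.08, adjusted p = 0.875, limma) or between small and large pre-B cells (-0.14 ± 0.08, adjusted p = 0.212, limma). Of the exon bases of Hipk1, 729, or 6.68%, are shared with an antisense gene, Gm15886, and reads there cannot be told apart where strand was not recorded.

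Hipk2 (chromosome 6, 38694390 to 38876165, minus strand), the kinase known to phosphorylate p53 after DNA damage, was lowest in thymocytes and highest in granulocytes. Granulocytes had 27.3 FPKM in the CKO-labelled and 21.2 FPKM in the Control library. Its level in thymocytes was 1.34 FPKM in CKO-labelled and 1.26 FPKM in Control quiescent cells, and 1.32 FPKM in CKO-labelled and 1.04 FPKM in Control cycling cells. The small pre-B cells had 7.3 FPKM in the CKO-labelled and 6.94 FPKM in the Control library, and large pre-B cells 7.72 FPKM in the CKO-labelled and 4.75 FPKM in the Control library. The 3 cell types did not overlap, whereas the states within a lineage did. Hipk2 rose by 1.73 ± 0.14 in granulocytes against pre-B cells (adjusted p = 2.87e-05, limma), with a ratio of 3.63-fold in both pools, and fell by 1.76 in thymocytes against pre-B cells (SE 0.12, adjusted p = 2.2e-05, limma).

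Between genotypes Hipk2 was higher in the CKO-labelled library of all 5 populations, from 1.05-fold in small to 1.62-fold in large pre-B cells, and its difference of 0.25 ± 0.1 did not pass (adjusted p = 0.298, limma). The gene body of Hipk2 overlaps that of Tbxas1, thromboxane synthase, on the opposite strand, with 0 shared exon bases. Tbxas1 had 8.84 FPKM in CKO-labelled and 20.3 FPKM in Control granulocytes, and at most 0.583 FPKM in lymphoid libraries, so its order between the granulocyte libraries was opposite to that of Hipk2.

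Hipk3 (chromosome 2, 104426481 to 104494446, minus strand), a further nuclear HIPK, varied least among the HIPK genes. It had 34.2 FPKM in CKO-labelled and 33.2 FPKM in Control granulocytes. Thymocytes had 13.0 FPKM in CKO-labelled and 15.1 FPKM in Control quiescent cells, and 11.9 FPKM in CKO-labelled and 14.5 FPKM in Control cycling cells. Pre-B cells had 15.1 FPKM in the CKO-labelled and 16.7 FPKM in the Control small cells, and 14.5 FPKM in the CKO-labelled and 14.8 FPKM in the Control large cells. The lymphoid populations lay close together, between 11.9 and 16.7 FPKM, below both granulocyte libraries. Granulocytes had 2.31-fold more Hipk3 than pre-B cells in the CKO-labelled pool and 2.1-fold more in the Control pool, a rise of 1.09 ± 0.1 (adjusted p = 3.72e-05, limma). It was lower in the CKO-labelled library of all 4 lymphoid populations, by -0.16 ± 0.08 (adjusted p = 0.34, limma), and over 5 populations the difference was -0.12 ± 0.07 (adjusted p = 0.404, limma).

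**Figure D4:**
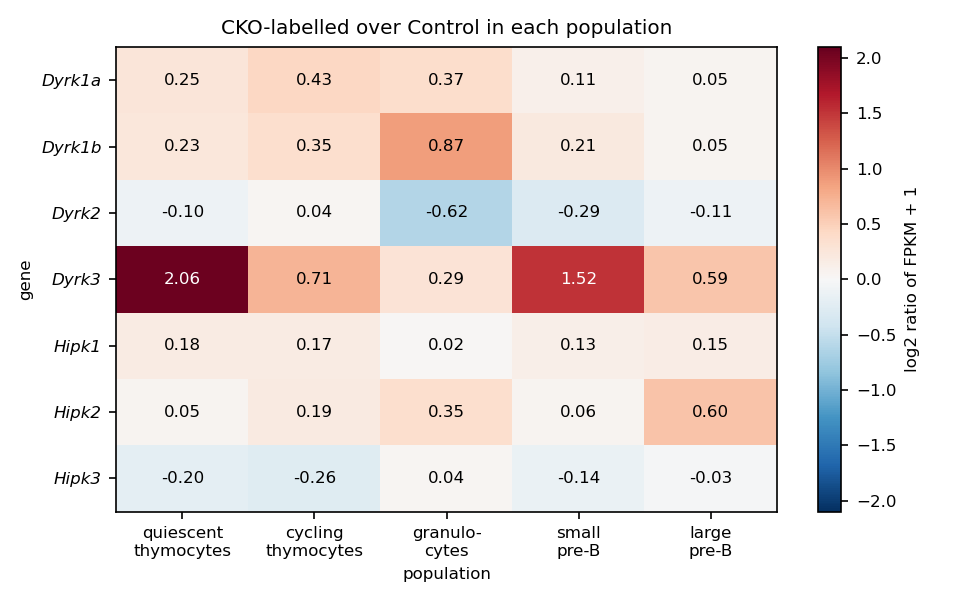
Log2 ratio of FPKM + 1, CKO-labelled over Control, for the 7 expressed genes (rows) in the 5 populations (columns), with 1 library per group, red for higher and blue for lower in the CKO-labelled library. Dyrk3 holds the largest ratios, 2.06 in quiescent thymocytes and 1.52 in small pre-B cells. Dyrk1a is positive in every column, as are Dyrk1b, Dyrk3, Hipk1 and Hipk2.

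Taking the genotype comparison over all 5 populations, 0 of the 7 members tested were called by limma, while 4 (Dyrk1a, Dyrk1b, Dyrk3 and Hipk1) had an unadjusted p under 0.05. Of all 11715 genes tested 6 were called, which is 0.0512%, and 1970, which is 16.8%, had an unadjusted p under 0.05. The median difference was 0.24 over the members and -0.01 over all genes. Over the 4 lymphoid populations 0 of 7 members were called and 3 had an unadjusted p under 0.05, beside 4 of 11126 genes called, which is 0.036%, and 1867 at an unadjusted p under 0.05. The members' median there was 0.21, beside -0.01 over all genes. Dyrk1a, Dyrk1b, Dyrk3, Hipk1 and Hipk2 were higher in the CKO-labelled library of 5 of 5 populations, and Dyrk2 and Hipk3 of 1 of 5. The share of all genes higher in 5 of 5 populations is not given here, and the populations of a genotype share 1 pool.

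For quiescent against cycling thymocytes 2 of 7 members were called, both higher, beside 21.1% of all genes called higher. In small against large pre-B cells 1 of 7 was called, higher, beside 22.1% of all genes called higher. For the difference of these effects between lineages limma called 0 of 7 members, none at an unadjusted p under 0.05, beside 2.25% of all genes called and 2676 genes at an unadjusted p under 0.05. Between thymocytes and pre-B cells 4 of 7 members were called, Dyrk1b and Hipk1 higher and Dyrk2 and Hipk2 lower, beside 69.7% of all genes. Between granulocytes and pre-B cells 5 of 7 were called, Hipk1, Hipk2 and Hipk3 higher and Dyrk2 and Dyrk3 lower, beside 77.8% of all genes. The last 2 comparisons share the pre-B cell libraries. In none of these comparisons was the share of members called, in either direction, above that of all genes.

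**Figure D5:**
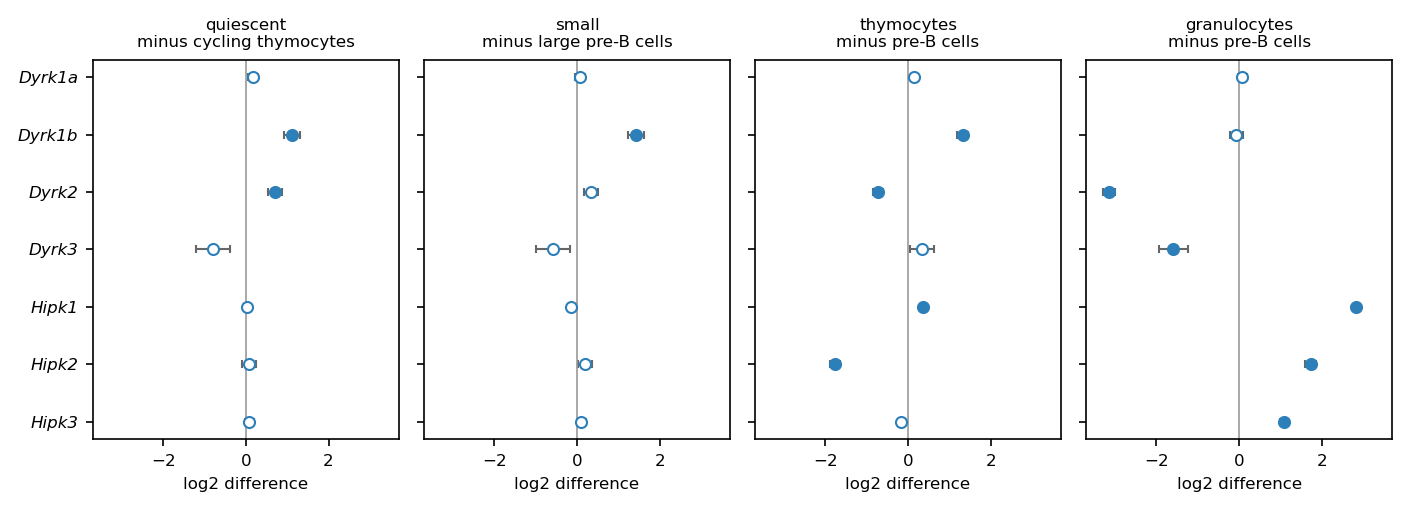
Log2 difference (horizontal axes) of 7 genes in 4 comparisons of populations, averaged over genotypes, with points for the limma estimate, bars for ± 1 SE and filled points for an adjusted p under 0.05. Dyrk1b is filled on the right in the first 3 panels, the HIPK genes are filled on the right in granulocytes against pre-B cells, and Dyrk1a is open in all 4 panels.

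The kinases next to this family by sequence, of the CLK, SRPK and PRPF4B groups, phosphorylate splicing factors. They were counted with Hipk4 as a list of 9, all measured and tested. No gene of the list was called in either genotype comparison, where its medians were 0.01 over 5 and -0.06 over 4 populations, beside -0.01 over all genes in both. In quiescent against cycling thymocytes 5 of 9 rose (Clk1, Clk3, Clk4, Srpk2 and Prpf4b) and none fell, with a median of 0.43 beside 0.04 over all genes. In small against large pre-B cells 5 of 9 rose (Clk1, Clk2, Clk3, Clk4 and Srpk3) and Srpk1 fell, with a median of 0.57 beside 0.02 over all genes. The shares of all genes called in either direction in these comparisons, 38.4% and 41.2%, are the background for this list and for the lists that follow.

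Clk1, a kinase of splicing factors, moved in the same direction as Dyrk1b. It had 306 FPKM in both CKO-labelled and Control quiescent thymocytes, against 132 FPKM in CKO-labelled and 118 FPKM in Control cycling thymocytes. It rose by 1.29 ± 0.14 (adjusted p = 0.00322, limma), and by 1.34 ± 0.14 in small against large pre-B cells (adjusted p = 0.00279, limma). Clk3 rose by 1.39 ± 0.17 in quiescent against cycling thymocytes (adjusted p = 0.00322, limma) and by 0.66 ± 0.17 in small against large pre-B cells (adjusted p = 0.0206, limma). Srpk3 rose by 2.0 ± 0.33 in small against large pre-B cells (adjusted p = 0.00584, limma).

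Hipk4, the HIPK gene outside the 8, was low throughout. It had 1.38 FPKM in CKO-labelled and 0.804 FPKM in Control quiescent thymocytes, and 2.15 FPKM in CKO-labelled and 1.39 FPKM in Control cycling thymocytes. No other library exceeded 0.219 FPKM, and CKO-labelled granulocytes were listed at 0. Hipk4 was called higher in thymocytes than in pre-B cells.

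Known partners of DYRK kinases, adaptors, ubiquitin ligases and inhibitors, formed a list of 12, all tested, and none was called between genotypes, with medians of 0.04 over 5 and 0.06 over 4 populations. Rnf169, Siah1a, Wsb1 and Mdm2 rose and Siah1b fell in quiescent against cycling thymocytes. Siah1a and Mdm2 rose and Ddb1, Siah1b and Spred1 fell in small against large pre-B cells. That is 5 of 12 called in each comparison, beside 38.4% of all genes in thymocytes and 41.2% in pre-B cells. Siah1b, a ubiquitin ligase of the SIAH group, which is known to turn over DYRK2 and HIPK2, had the largest genotype difference of this list. Its level was 6.22 FPKM in CKO-labelled and 3.02 FPKM in Control quiescent thymocytes, and 6.0 FPKM in CKO-labelled and 3.11 FPKM in Control small pre-B cells. In cycling thymocytes it had 13.4 FPKM in the CKO-labelled and 12.5 FPKM in the Control library, and in large pre-B cells 9.89 FPKM in the CKO-labelled and 8.38 FPKM in the Control library. As with Dyrk3, the larger ratios were in the quiescent populations.

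The genotype difference of Siah1b over 5 populations, 0.44 ± 0.14, did not pass (adjusted p = 0.234, limma). It fell by 1.38 in quiescent against cycling thymocytes (SE 0.21, adjusted p = 0.00514, limma) and by 0.91 in small against large pre-B cells (SE 0.21, adjusted p = 0.0166, limma). Siah1b has a near-identical copy in Siah1a, so the split of reads between them is uncertain. Ddb1, the adaptor of the ubiquitin ligase that DYRK2 scaffolds, was abundant, with 52.3 to 111 FPKM, and fell by 0.49 in small against large pre-B cells (SE 0.09, adjusted p = 0.00771, limma). Wsb1, a ubiquitin ligase subunit known to act on HIPK2, rose by 0.47 ± 0.11 in quiescent against cycling thymocytes (adjusted p = 0.0175, limma).

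Of 12 known DYRK1A substrates and readouts none was called between genotypes, with medians of 0.09 over 5 and 0.06 over 4 populations. In quiescent against cycling thymocytes Cdkn1b and Sf3b1 rose and none fell, and in small against large pre-B cells Cdkn1b and Foxo1 rose and Ccnd2 and Ccnd3 fell. That is 2 of 12 called in thymocytes, beside 38.4% of all genes, and 4 of 12 in pre-B cells, beside 41.2%. Ccnd3, a D-type cyclin that both lineages need to divide, was 162 FPKM in CKO-labelled and 240.0 FPKM in Control small pre-B cells, and for large pre-B cells 330.0 FPKM in the CKO-labelled and 500.0 FPKM in the Control library. Its genotype difference over 5 populations of -0.32 ± 0.1 did not pass (adjusted p = 0.239, limma). Sf3b1, a splicing factor that DYRK1A phosphorylates, differed by 0.02 ± 0.08 between genotypes (adjusted p = 0.905, limma). Ccnd1 stood out in 1 library, with 20.4 FPKM in CKO-labelled and 1.17 FPKM in Control small pre-B cells, and between 0.78 and 4.0 FPKM elsewhere.

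Of 12 known HIPK partners and substrates none was called between genotypes, with medians of 0.03 over 5 and 0.04 over 4 populations. Among those that rose in quiescent against cycling thymocytes were Axin1, Tle1, Skil, Nlk, Zbtb4 and Trp53inp1, and Pml and Hmga1 fell. Among those that rose in small against large pre-B cells were Pml, Daxx, Skil, Zbtb4 and Trp53inp1, and none fell. In all 9 of 12 were called in thymocytes, beside 38.4% of all genes, and 6 of 12 in pre-B cells, beside 41.2%. Pml, the scaffold of the nuclear bodies in which HIPK2 is found, was called lower in the difference between lineages (thymocyte minus pre-B). Trp53inp1, a p53 target whose product brings p53 together with HIPK2, had 442 FPKM in CKO-labelled and 252 FPKM in Control quiescent thymocytes, and 185 FPKM in CKO-labelled and 105 FPKM in Control cycling thymocytes. Its genotype difference over 5 populations, 0.44 ± 0.13, did not pass (adjusted p = 0.223, limma). Hmga1, a chromatin protein that HIPK2 phosphorylates, fell by 1.58 in quiescent against cycling thymocytes (SE 0.24, adjusted p = 0.00478, limma).

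The genes whose levels ran most like each member were ranked by Pearson correlation of log2(FPKM + 1) over the 10 libraries, among 7986 or 7987 genes with a mean of at least 5 FPKM. The libraries share pools and cell types, so these are descriptions only. For Dyrk3 they were Tonsl (r = 0.953), Rif1 (0.949) and Fam38a (0.944). Tonsl, a protein that repairs stalled replication forks, had 11.2 FPKM in CKO-labelled and 5.05 FPKM in Control quiescent thymocytes, and 9.66 FPKM in CKO-labelled and 5.06 FPKM in Control small pre-B cells. Rif1, a regulator of replication timing, had 15.9 FPKM in CKO-labelled and 9.28 FPKM in Control quiescent thymocytes, and 16.5 FPKM in CKO-labelled and 9.97 FPKM in Control small pre-B cells. Both were also higher in the CKO-labelled library of these populations, which follows in part from ranking them by these same libraries.

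Dyrk1b ran most like Tapbpl (r = 0.983), Rbbp6 (0.978) and Synj2bp (0.973). Tapbpl, which helps load peptides on MHC class I, had 31.9 FPKM in CKO-labelled and 27.2 FPKM in Control quiescent thymocytes, and for large pre-B cells 12.6 FPKM in the CKO-labelled and 10.2 FPKM in the Control library. The nearest genes to Dyrk2 were S100a10 (r = 0.995), Prepl (0.992) and Aff3 (0.99). Aff3, a nuclear protein of lymphoid cells, had 0.564 FPKM in CKO-labelled and 0.812 FPKM in Control granulocytes, and 41.3 FPKM in CKO-labelled and 60.4 FPKM in Control small pre-B cells.

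Hipk1 ran most like Arrb2 (r = 0.999), Vcl (0.999) and Myh9 (0.998), genes of receptor trafficking and of the cytoskeleton that were high in granulocytes. Arrb2 had 748 FPKM in CKO-labelled and 737 FPKM in Control granulocytes, and at most 27.9 FPKM in lymphoid libraries. Hipk2 was nearest to Pias3 (0.993), Map3k5 (0.991) and Entpd1 (0.99), and Hipk3 to Nck1 (0.998), Eml2 (0.992) and Slc25a24 (0.991). With granulocytes so far from the other libraries, these values rest largely on that population. Dyrk1a had no gene above r = 0.869 (Prrc2a, then Zfp787 at 0.865 and Atrx at 0.861), the lowest top value of the 7 members.

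Among the members themselves, Hipk1 and Hipk3 had r = 0.92 over 10 libraries but r = -0.86 over the 8 lymphoid ones. Dyrk2 and Hipk1 had r = -0.96 over 10 and -0.77 over 8 libraries. Dyrk1a and Dyrk1b had r = 0.64 over 10 and 0.67 over 8 libraries. Dyrk3 and Hipk3 had r = -0.82 over 10 and -0.8 over 8 libraries. Leaving out granulocytes thus turned the sign for Hipk1 with Hipk3 and kept it for the other 3 pairs named. These pairs are examples, and the sign turned for further pairs. Dyrk2 and Hipk3 had r = -0.84 over 10 and 0.74 over 8 libraries. Dyrk2 and Hipk2 had r = -0.57 over 10 and 0.79 over 8, and Hipk1 and Hipk2 had 0.69 over 10 and -0.83 over 8.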

How the data were processed

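RNA sequencing was made on 10 libraries, per the labels 1 per population and genotype. Total RNA was extracted from stained, sorted cells and made into Illumina libraries, per the labels' protocols. The submitters' processing notes name TopHat2 2.0.8b, Cuffdiff 2.1.1 and mm10 and give no roles. The deposited values are read as FPKM by the authors, a unit inferred from Cuffdiff and the values. The annotation and strand setting are not given in the sources used here. They are scaled within each library and cannot show a change in RNA content per cell, and an exact 0 can be a failed estimate.

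Of 23179 rows 201 were exact repeats. For 47 symbols that still had several rows, the most abundant row was used, and 22923 symbols remained. Each haemoglobin row covers a pair of gene copies. Depth is unknown. Relative to Control cycling thymocytes, 1 fragment weighed 1.04 to 1.32 in other lymphoid libraries and 2.36 in CKO-labelled and 2.11 in Control granulocytes, inferred from ratios of low values.

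Tests were run in R 4.3.3 with limma 3.58.1, as limma-trend on log2(FPKM + 1), for genes reaching 1 FPKM in at least 2 libraries of a fit. The p-values were adjusted over all genes by Benjamini-Hochberg, with a threshold of 0.05. Genotype fits had population as a block (10 or 8 libraries), and population contrasts had genotype as a block (10 libraries). Each fit was tested on simulated data. Within a population no test was made. Alternatives changed the pseudocount (0.1 or 5), the filter, the scaling (median ratios) or the blocks, or left out libraries. The members and gene lists were chosen with earlier results of these data known. Named list genes were the 2 with the highest mean FPKM and the 1 with the largest genotype difference per list, and called genes are named beside their counts, except that results for some list genes are not reported here. The likeness ranking left out predicted genes, receptor and immunoglobulin segments, Y-linked genes and small RNA genes. Tonsl, Rif1, Tapbpl, Aff3 and Arrb2 are given with values as examples chosen after these were seen. Positions are from GENCODE vM21, promoters from RefSeq (GRCm38.p6), and motifs were searched by exact letters. Tables and plots were made with pandas 2.3.3, matplotlib 3.10.9 and numpy 2.4.6 under Python 3.11.15.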

Additional observations from a re-analysis of the deposited data

How the results depend on the processing

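The labels give no replicate numbers to pair by. With 1 CKO-labelled and 1 Control library per population, the population block paired the libraries of a population. The genotype block likewise matched the libraries of a pool. Over 1086 values recomputed under other settings, 1007 were classed as the same, 5 lost and 2 gained a call, 20 turned sign and 52 moved. A tested difference was the same if its direction and side of the threshold held. A count was the same within a set fold, and a size-rule ratio if it kept its side of the rule. Some classes were fixed by the setting. A lower FPKM floor of the size rule left each ratio unchanged, and untested means of quiescent or cycling populations alone were never classed as the same. No member was called between genotypes in any setting. In quiescent against cycling thymocytes the members called ranged from 0 to 2 with 1 library left out, 0 without the Control cycling and 1 without the Control quiescent library. With a pseudocount of 5, 0 members met the size rule in small pre-B cells. Rescaling shifted the median of all genes by -0.13 in granulocytes against pre-B cells, by which Dyrk1a became -0.05, while the 5 calls held. In the added test of the genotype gap rescaling gave 0.04 for Hipk1 and 0.02 for Hipk3.

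With 1 library left out, these uncalled differences changed sign, with lowest and highest values given. In quiescent against cycling thymocytes Hipk1 ranged from -0.01 to 0.06 and Hipk2 from -0.04 to 0.21. In small against large pre-B cells Dyrk1a ranged from -0.05 to 0.19 and Hipk2 from -0.02 to 0.42. For the difference between lineages Dyrk1a ranged from -0.02 to 0.22, Dyrk3 from -0.86 to 0.43, Hipk2 from -0.33 to 0.1 and Hipk3 from -0.11 to 0.06. In granulocytes against pre-B cells Dyrk1b ranged from -0.4 to 0.26. The cause was not tested. Over all other settings together, and not only with libraries left out, the number of all genes called also varied. Between genotypes it ranged from 1 to 9 over 5 populations and from 0 to 10 over 4. For the difference between lineages it ranged from 0 to 761. It ranged from 651 to 4997 for quiescent against cycling thymocytes and from 1509 to 5277 for small against large pre-B cells. Unknown depth limits low genes, Dyrk4 above all.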
